A study of Mus with 17 samples.

Results

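The major urinary proteins are a family of small carrier proteins that mouse liver secretes into the blood and that pass into the urine. The transcripts of 8 of their genes, Mup1, Mup2, Mup3, Mup5, Mup7, Mup12, Mup20 and Mup21, were described here out of 24940 genes listed for each library. The 8 genes were taken by name, and each was compared between the diets singly and summed, because near-identical copies can share reads. The choice was made with the diet difference of these genes known, so their levels and differences are given as a description, without a test. Whole liver RNA was measured in 17 male C57BL6/JBomTac mice, 1 library per mouse. Of these, 8 had a western diet with 42 g/L of fructose in their water, a regimen that the labels give as a model of advanced steatohepatitis, and 9 had chow and plain water. Both groups were kept on their diet for 52 weeks, were matched in age per the labels, which name no engineered allele, and went without food overnight before death. The source name of all 17 samples reads western diet, whereas the treatment label and the series' design give 8 and 9, and the treatment label was used.

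Major urinary proteins belong to the lipocalins, barrel-shaped proteins that hold small hydrophobic molecules in a pocket. In mice they bind volatile pheromones, release them slowly from scent marks and act as scent signals themselves. Their genes form a cluster on chromosome 4, in which a central block of near-identical copies lies between more diverged copies at the edges. In the liver they are known to be expressed more in males than in females and to depend on growth hormone, which reaches the liver in pulses in males, as well as on androgen, thyroid hormone and glucocorticoid. The transcription factor STAT5 carries the growth hormone signal to the genes of the hepatocyte.

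The libraries held 3604212 to 9071908.5 counts, with medians of 6547132.75 on western diet and 6652505.5 on chow, and the limit set by a count of 0, taken as 3 counts, lay between 0.331 and 0.832 CPM (counts per 1000000 counts of the library) and covers counting error only. The 12 hepatocyte markers summed to 10772 to 18229 CPM on western diet (median 13125) and to 14231 to 18777 CPM on chow (median 17071), and none of them was at 0 in any library. Of the hepatocyte markers 3 fell and none rose at an adjusted p under 0.05, against 23.6% lower and 24.8% higher over all genes tested. The 12 macrophage markers summed to 983 to 1598 CPM on western diet and 462 to 832 CPM on chow. Of the macrophage markers 9 rose and 2, Cd163 and Marco, fell (log2 differences -4.32 and -2.94), against the same shares. Their part in the results was not tested. In whole liver, fewer hepatocytes and less transcript per hepatocyte cannot be told apart. Markers of pancreatic acinar cells summed to 5148 CPM in western diet replicate 5 and to 15881 CPM in chow replicate 2, against 148 to 603 CPM in the other libraries, so the differences of the tested members are also given without both. Libraries of the same diet differed by more than counting error in every pair (chi-square over its degrees of freedom at least 3.81).

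On the mouse assembly GRCm38.p6, the build also called mm10, all 8 genes lay on chromosome 4. Mup7 lay at 60066469 to 60070475, Mup2 at 60135913 to 60139977, Mup1 at 60498012 to 60501960 and Mup12 at 60737381 to 60741416, all in the central block. At the other end of the cluster Mup5 lay at 61831319 to 61858043, Mup20 at 62011337 to 62054143, Mup3 at 62083476 to 62087317 and Mup21 at 62147832 to 62150841. Each span covers the exons and introns of a protein-coding gene. The files listed 13 other Mup genes, and RefSeq placed all 21 within 2194038 bases, together with 23 loci named as Mup pseudogenes on that chromosome.

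Of the 8 genes, Mup1 and Mup12, both of the central block, had the largest difference between the diets. Mup12 was at 1.67, 6.59 and 13.3 CPM (lowest, median and highest of 8) on western diet and at 60.8, 90.1 and 118 CPM (of 9) on chow, in CPM scaled by edgeR's TMM factors as in all levels given here. Every western diet library lay below every chow library, and the fitted level was 11.2-fold lower on western diet, a log2 difference of -3.48 ± 0.32 (± SE, western diet minus chow). Mup1 was at 0.976, 5.98 and 10.8 CPM on western diet and at 27.1, 50.8 and 63.2 CPM on chow. Its groups did not overlap either, with a log2 difference of -2.90 ± 0.31. The lowest western diet library was replicate 5 for both genes, as it was in CPM for Mup2, Mup3, Mup7, Mup20 and Mup21. Replicate 5, which held pancreatic transcripts, had 14.5 counts of Mup12 and 8.5 of Mup1. Without the 2 libraries with pancreatic transcripts the log2 differences were -3.34 for Mup12 and -2.75 for Mup1.

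Mup7 and Mup2, from the start of the central block, were lower on western diet by a smaller step. Mup7 was at 41.8, 142 and 148 CPM on western diet and at 296, 401 and 539 CPM on chow, 3.21-fold lower (log2 difference -1.68 ± 0.20), without overlap. In 7 western diet libraries Mup7 was within 110 to 148 CPM, and replicate 5 stood apart at 41.8 CPM. Mup2 was at 4.88, 18.9 and 26.2 CPM on western diet and at 26.8, 39.1 and 83.98 CPM on chow, 2.54-fold lower (log2 difference -1.34 ± 0.27). Its highest western diet library, replicate 6, lay just under its lowest chow library, replicate 2. Chow replicate 8, the chow library with the fewest counts, was the highest chow library in CPM for Mup1, Mup2, Mup7 and Mup12. It was also the highest for Mup3, Mup20 and Mup21. Without the 2 libraries with pancreatic transcripts, one of them western diet replicate 5, the log2 differences were -1.59 for Mup7 and -1.26 for Mup2.

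**Figure D1:**
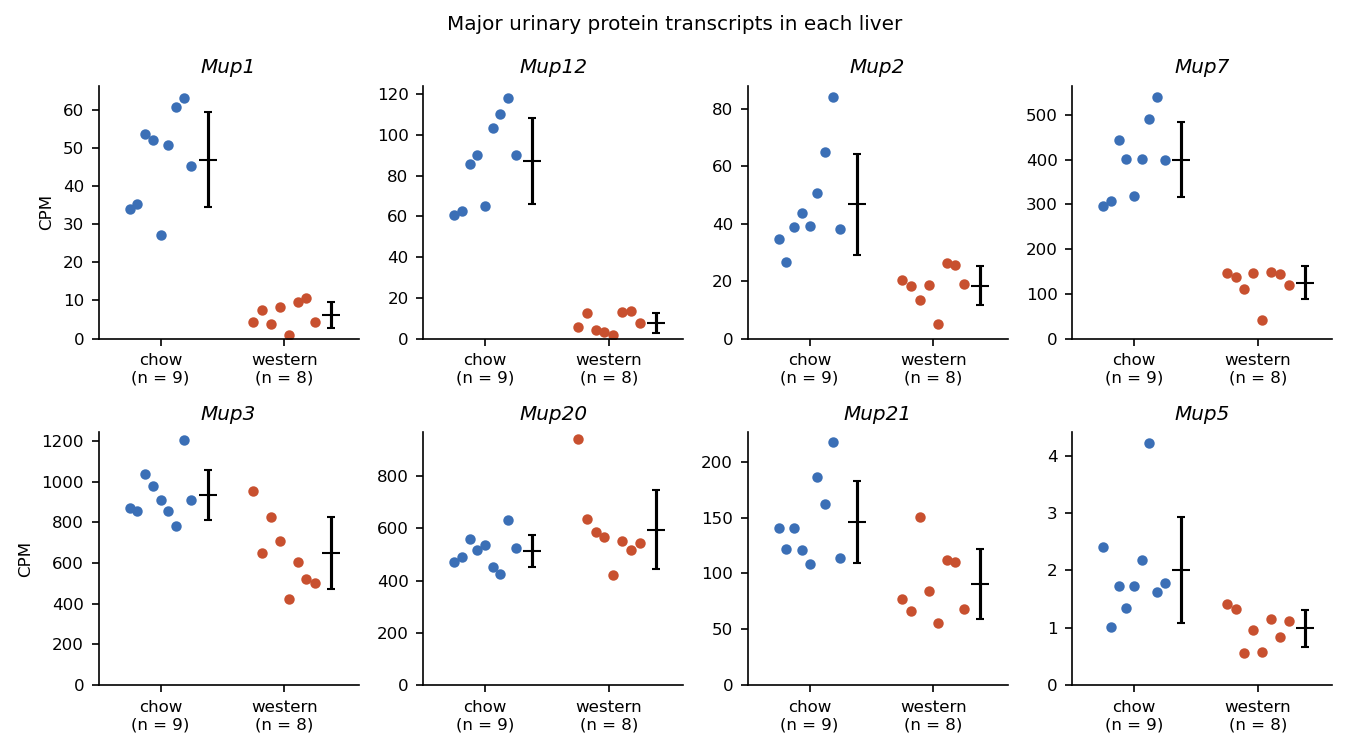
Level of each of the 8 major urinary protein genes in every liver. Points are libraries in order of replicate number, in CPM on an axis from 0, and bars show mean ± SD for 9 chow and 8 western diet mice; Mup1, Mup12, Mup2 and Mup7 do not overlap between the diets, whereas Mup20 is at 425 to 632 CPM on chow and 423 to 942 CPM on western diet.

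Mup20 was the only one of the 8 that was not lower on western diet. It encodes darcin, the male pheromone protein that draws females to a male's scent marks. Mup20 was at 423, 559 and 942 CPM on western diet and at 425, 516 and 632 CPM on chow, a log2 difference of 0.22 ± 0.12. The groups overlapped: 2 libraries from western diet exceeded the highest chow library and 1 was under the lowest. Without the 2 libraries with pancreatic transcripts the difference was 0.27, and with scaling by library size alone, which moved the median log2 difference of all genes from -0.0091 to 0.12, it was 0.33.

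Mup3, the neighbour of Mup20 at the edge of the cluster, was modestly lower. It was at 422, 627 and 953 CPM on western diet and at 784, 909 and 1202 CPM on chow, 1.44-fold lower (log2 difference -0.53 ± 0.13), and 6 of 8 western diet libraries lay below the lowest chow library. The difference of Mup3 was -0.47 without both libraries with pancreatic transcripts. The ratio of Mup3 to Mup20 counts, which needs no scaling between libraries, was 1.70 to 1.90 on chow and 0.922 to 1.41 on western diet. The ratios of the 2 diets did not overlap, so Mup3 was lower relative to Mup20 in all 8 western diet livers. Mup12 was likewise lower relative to Mup7, 0.193 to 0.258 on chow and 0.0228 to 0.0918 on western diet.

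Mup21, at the outer end of the cluster, was at 55.9, 80.4 and 151 CPM on western diet and at 109, 141 and 218 CPM on chow, a log2 difference of -0.69 ± 0.19. The groups overlapped through 3 western diet libraries, the highest of them replicate 3, and 5 of 8 western diet libraries lay below all chow libraries. Leaving out both libraries with pancreatic transcripts gave -0.64 for Mup21. Mup5, which is known mainly from salivary glands, was near the limit of the depth. It had 3 to 9.5 counts on western diet and 6.5 to 38.5 counts on chow. In the main fit it did not pass the filter on low counts. Fitted without that filter, Mup5 had a log2 difference of -1.06 ± 0.29. It passed the filter in some fits that left out 1 library, with log2 differences of -1.11 to -0.949. Its chow range of 1.01 to 4.22 CPM overlapped the western diet range of 0.556 to 1.41 CPM.

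Of the 7 members that passed the filter, 6 were lower at an adjusted p under 0.05 by edgeR's quasi-likelihood test, and 4 had no overlap. Over all 13204 genes tested, 23.6% were lower and 24.8% higher by that test (3122 and 3271 genes; 1621 and 4479 with scaling by library size alone), or 48.4% in either direction. All western diet libraries were below all chow libraries for 5.03% of genes and above them for 7.01%. The members were chosen on this contrast, so nothing is read from their count. The median log2 difference of the 7 was -1.34, against -0.0091 over all genes tested. The sign of each of these 7 differences was the same in all 27 alternatives, in which Mup20 ranged from 0.081 to 0.33.

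Summed over the 8 members, the western diet livers were at 951, 1497 and 2150 CPM (lowest, median and highest) and the chow livers at 1902, 2106 and 2858 CPM. The summed count was 1.46-fold lower on western diet, a log2 difference of -0.54 ± 0.12, and 7 of 8 western diet libraries lay below the lowest chow library. The remaining one was replicate 1, the library with the fewest counts. The sum mostly followed Mup3 and Mup20. Without these genes the other 6 members summed to 106 to 310 CPM on western diet and 555 to 1025 CPM on chow, without overlap, and the log2 difference was -1.55 ± 0.18. That sum of 6 was chosen after the values were seen. With both libraries with pancreatic transcripts left out, the differences were -0.49 for the sum of 8 and -1.48 for the sum of 6.

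The make-up of the pool also differed. Mup20 made 23.6 ± 2.08% (mean ± SD, n = 9) of the 8 members' counts on chow and 40.0 ± 3.68% (n = 8) on western diet, and the ranges, 20.2 to 26.7% and 34.5 to 44.5%, did not overlap. Mup3 held nearly the same share on both diets, 43.0 ± 2.69% and 43.2 ± 3.35%. Mup7 went from 18.3 ± 2.38% to 8.34 ± 2.19%, Mup12 from 4.0 ± 0.740% to 0.522 ± 0.338% and Mup1 from 2.14 ± 0.440% to 0.418 ± 0.242%, none with overlap. Mup21 kept a share of 6.69 ± 1.25% on chow and 6.16 ± 1.89% on western diet, with overlap. Shares of a fixed whole move against each other, so the larger share of Mup20 says that the other members were lower relative to it.

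**Figure D2:**
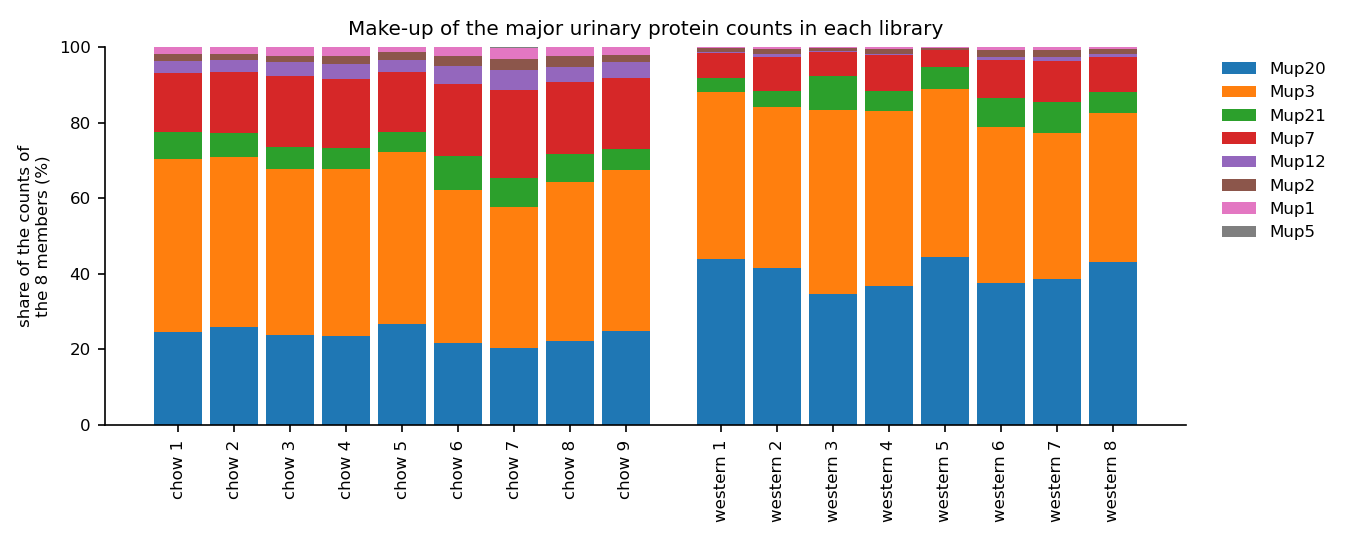
Share of each member in the summed counts of the 8 members, 1 bar per library, in percent of that sum. Mup20 holds 20.2 to 26.7% of every chow bar and 34.5 to 44.5% of every western diet bar, while the bands of Mup7, Mup12 and Mup1 are narrower in all 8 western diet bars.

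The other 13 Mup genes lay on the same side as most members. All 13 passed the filter, with log2 differences of -2.05 to -0.41 and a median of -0.92. By edgeR's quasi-likelihood test 9 of them were lower at an adjusted p under 0.05, against 23.6% of all genes. Near-identical copies can share reads with the members, which were chosen on this contrast, so nothing is read from this count. Mup16 had the largest difference, 3.68 to 21.2 CPM on western diet and 25.6 to 111 CPM on chow (log2 difference -2.05 ± 0.37). Mup11 and Mup15 did not overlap either, with log2 differences of -1.60 ± 0.24 and -1.75 ± 0.24. Mup17, at 32.0 to 168 CPM on western diet and 79.2 to 334 CPM on chow, did not pass (log2 difference -0.49 ± 0.35), nor did Mup9, Mup18 and Mup4. The log2 difference of Mup10, -0.41 ± 0.13, was close to that of Mup3, -0.53 ± 0.13. The 4 lowest genes, Mup4, Mup6, Mup8 and Mup19, had medians of 1.18 to 1.42 CPM on western diet. Summed over all 21 genes listed under a Mup name, the log2 difference was -0.63 ± 0.14. This sum leaves out Gm2083 and Gm21320, genes of the family under older names that are described below. Gm2083 alone had a median of 362 CPM on chow.

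Along chromosome 4 the differences did not follow a simple order. Mup1 and Mup12 flank Mup10 and Mup11, which differed by -0.41 and -1.60, so neighbours within the central block had unlike values. The files also listed 2 genes under older names that RefSeq pairs with the family. Gm21320, now Mup22, was at 42.0 to 84.97 CPM on western diet and 68.2 to 96.1 CPM on chow (log2 difference -0.44 ± 0.11). Gm2083, an older name of Mup13 that the files list beside Mup13, was at 91.4 to 321 and 259 to 769 CPM (-0.86 ± 0.25). How reads that match several near-identical copies were assigned is not given in the sources used here. The split between Mup1, Mup2, Mup7, Mup12 and the other central copies is therefore uncertain.

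**Figure D3:**
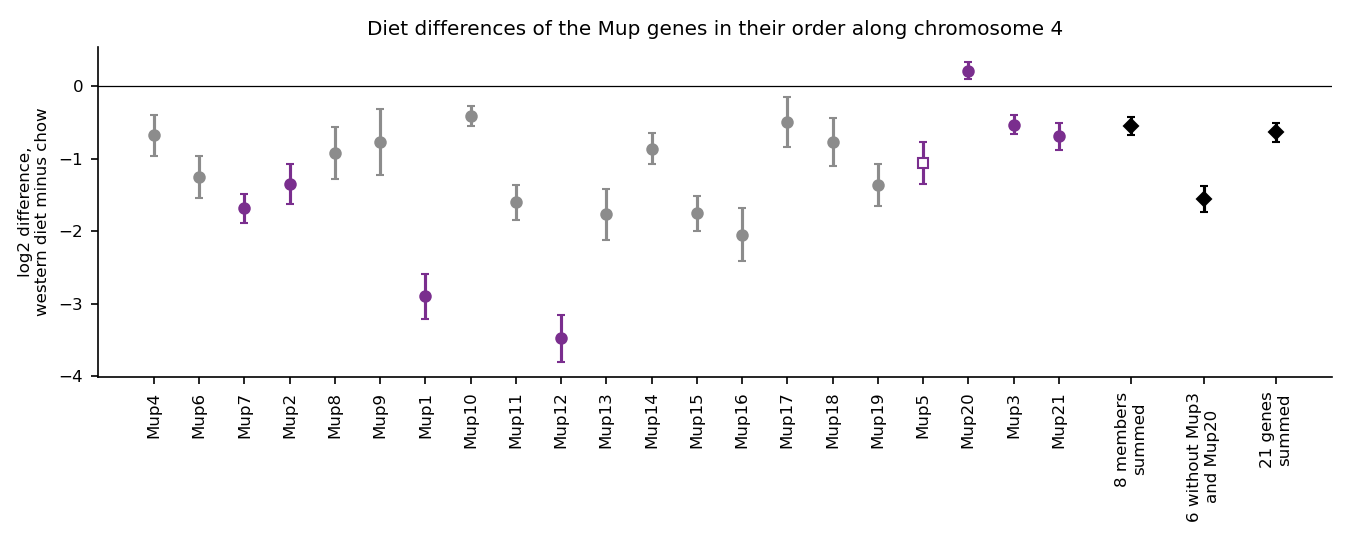
Log2 difference, western diet minus chow, of 21 Mup genes in their order on chromosome 4 and of 3 sums, with the SE as bars. Purple points are the 8 members, grey points the other Mup genes, diamonds the sums, and the open square is Mup5, fitted without the filter on low counts; Mup12 lies lowest at -3.48 and Mup20 is the one gene above 0.

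Levels of different members were compared per kilobase of gene span for the 6 genes with spans of 3010 to 4065 bases. The spans include introns and are not transcript lengths, so the order holds for this measure only. The annotated spans of Mup5 and Mup20, 26725 and 42807 bases, are far longer and were not used. On chow the order was Mup3 at 243 ± 32.4 CPM per kilobase (mean ± SD, n = 9), Mup7 at 99.8 ± 20.8, Mup21 at 48.5 ± 12.2, Mup12 at 21.7 ± 5.24, Mup1 at 11.9 ± 3.15 and Mup2 at 11.5 ± 4.33. Each of the first 4 was above the next in all 9 chow libraries, while Mup1 was above Mup2 in 6 of 9, so these neighbours did not differ beyond their spread. On western diet Mup3 stayed first at 169 ± 45.97 CPM per kilobase (n = 8). Mup7 at 31.1 ± 9.06 and Mup21 at 30.04 ± 10.5 followed and could not be ranked by this measure, with Mup7 above Mup21 in 4 of 8 libraries. In plain CPM their western diet means were 125 ± 36.3 for Mup7 and 90.4 ± 31.7 for Mup21. Per kilobase of span Mup2 came next at 4.51 ± 1.67, above Mup12 at 1.89 ± 1.17 in all 8 libraries. Mup1 had the lowest mean, 1.56 ± 0.847, with Mup12 above it in 7 of 8 libraries and overlapping ranges. On chow Mup12 was above Mup2 in all 9 libraries.

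Counts of the abundant members were higher in deeper libraries by less than in proportion. Within the diets, the slope of log2 count on log2 library total was 0.34 for Mup3 and 0.48 for Mup20, where a slope of 1 is proportional. Over all tested genes the median slope was 1.17, and 1.13% of genes were under 0.5. Low slopes were common among abundant genes: over the 50 most abundant the median was 0.58, and over 20 other secreted hepatocyte proteins 0.44. Mup7 had a slope of 0.76, near the 5th percentile of all genes (0.737). The slopes of the less abundant members were 1.09 for Mup1, 0.99 for Mup2, 1.49 for Mup12 and 1.10 for Mup21.

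The CPM of Mup3 and Mup20 was therefore higher in shallower libraries. Western diet replicate 1, with 3604212 counts, held 942 CPM of Mup20 from 3329.5 counts, while chow replicate 7, with 9071908.5 counts, held 425 CPM from 3878 counts. With the log2 library total as a covariate the log2 difference was -0.62 ± 0.065 for Mup3 and 0.15 ± 0.065 for Mup20. Among the 6 western diet and 8 chow libraries of intermediate depth (5000000 to 8000000 counts) it was -0.62 ± 0.13 for Mup3 and 0.081 ± 0.089 for Mup20. The log2 differences of Mup12 in these fits were -3.49 and -3.58, close to its main value of -3.48.

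**Figure D4:**
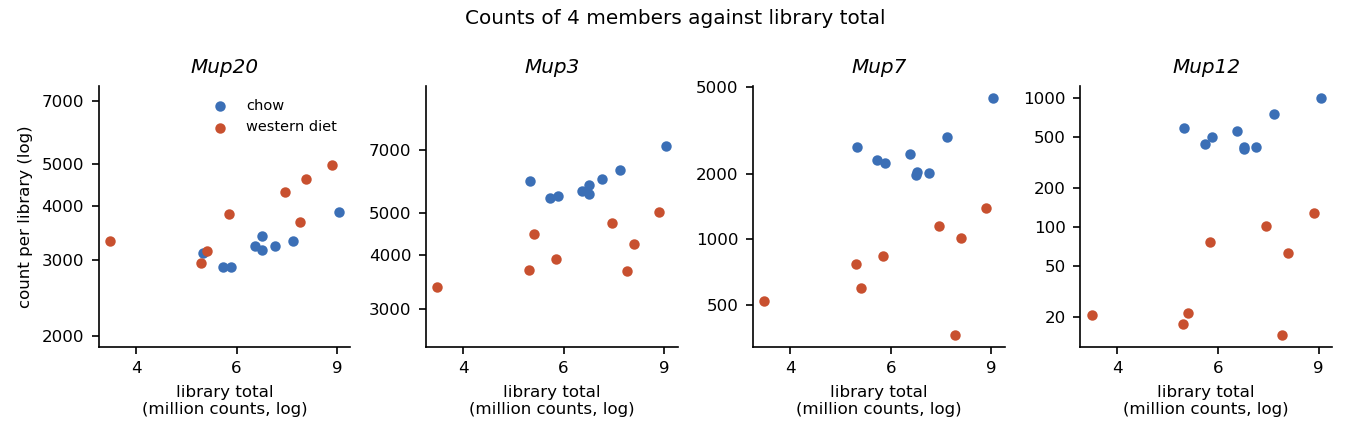
Count per library of Mup20, Mup3, Mup7 and Mup12 against the library total, both axes logarithmic, with 1 point per library. Mup20 stays between 2885.5 and 4969.5 counts in libraries of 3604212 to 9071908.5 counts on either diet, and Mup12 lies at 14.5 to 127.5 counts on western diet against 402.5 to 1006 on chow.

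Whether members varied together among mice of the same diet was asked for Mup1, Mup3, Mup20 and Mup21, in 6 pairs in each diet and so 12 relations of log2 CPM. Mup3 and Mup20 went together: on chow Pearson's r was 0.94 (n = 9, adjusted p = 0.00165, exact permutation test, two-sided) and Spearman's rho 0.90 (adjusted p = 0.0243), and on western diet r was 0.85 (n = 8, adjusted p = 0.0202, exact permutation test) and rho 0.90 (adjusted p = 0.0274). These p-values were adjusted over the 12 relations; the raw exact p of r was 1.38e-04 on chow and 0.00337 on western diet. Both genes moved with library total, as given above. After each diet's mean was subtracted, r of log2 CPM with log2 library total was -0.91 for Mup3 and -0.87 for Mup20 (17 libraries). For Mup1 and Mup21 it was -0.017 and -0.031. The part of depth in the relation of Mup3 and Mup20 was not tested. Without the 2 libraries farthest from the median of Mup3, r was 0.81 on chow (n = 7, raw p = 0.0302, adjusted p = 0.362, exact permutation test) and 0.59 on western diet (n = 6, raw p = 0.225, adjusted p = 0.675, exact permutation test). The relation kept its sign there but no longer passed the adjusted threshold, with fewer libraries and a narrower range of Mup3. The next relation, Mup1 with Mup21 on chow, had r = 0.67 (n = 9, raw p = 0.0483, adjusted p = 0.193, exact permutation test) and rho 0.63, and the other 9 had adjusted p-values of at least 0.640.

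Genes that are known to be higher in male than in female liver were mostly lower on western diet, like most Mup genes. Of 13 listed genes 12 were tested: 8 fell and none rose by edgeR's quasi-likelihood test (1 at an unadjusted p under 0.05, none by DESeq2 or limma-voom), against 23.6% and 24.8% of all genes. Hsd3b5, a steroid-reducing enzyme of male liver, fell most, from 6.21, 32.3 and 165 CPM on chow (lowest, median, highest) to 1.26, 5.53 and 13.2 CPM on western diet (log2 difference -3.06 ± 0.72, adjusted p = 0.00253). The fatty acid elongase Elovl3 fell by 1.44 ± 0.34 (adjusted p = 0.00247), with western diet replicate 3 inside the chow range at 467 CPM. Cyp7b1, an oxysterol hydroxylase, fell by 0.84 ± 0.18, Cyp4a12a, a fatty acid hydroxylase, by 0.59 ± 0.19 and Cyp2d9, a steroid hydroxylase, by 0.48 ± 0.11, and the list's median was -0.69. Slco1a1, an organic anion transporter, at -2.0 ± 0.24, and Susd4, at -2.89 ± 0.23, had no overlap between the diets. Cyp4a12b, C6, Selenbp2 and the repressor Bcl6 did not pass, at -0.09, -0.04, -0.80 and 0.80; Bcl6 passed as a rise with library size alone (adjusted p = 0.0444) and without western diet replicate 1, western diet replicate 3 or chow replicate 4. Mup genes were not in this list.

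Most genes known to be higher in female liver were too low to test, with 5 of 17 past the filter. Cyp2a4, a steroid hydroxylase, rose from 1.63, 2.41 and 3.57 CPM on chow to 8.63, 22.4 and 161 CPM on western diet (log2 difference 4.44 ± 0.62, adjusted p = 2.55e-05), and its reads can be shared with Cyp2a5. Sult1e1, which inactivates oestrogens by sulfation, rose from 0.179, 0.674 and 2.58 CPM to 3.52, 9.95 and 17.4 CPM (3.47 ± 0.39, adjusted p = 8.33e-07). Neither overlapped between the diets. In the libraries of 5000000 to 8000000 counts the differences were 3.53 for Cyp2a4 and 4.14 for Sult1e1, and that of Cyp2a4 was 3.71 with limma-voom. Cyp17a1, Cyp2b9 and Abcd2 did not pass, at 0.99, 0.18 and -0.58. None of the 5 fell (1 at an unadjusted p under 0.05; 3 of the list by DESeq2 and none by limma-voom); Abcd2 passed as a fall without western diet replicate 5, western diet replicate 8 or chow replicate 2 (adjusted p of 0.0278 to 0.0403).

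In the growth hormone axis, 5 of 15 genes passed the test, against 48.4% of all genes. The receptor Ghr was at 498, 596 and 743 CPM on western diet and 517, 731 and 808 CPM on chow (log2 difference -0.18 ± 0.098, adjusted p = 0.136), its kinase Jak2 at 0.14 ± 0.10 and Stat5b, the main STAT5 of male liver, at -0.0045 ± 0.07. Of 15 genes tested, 2 rose, Stat5a (0.37 ± 0.11) and the carrier Igfbp3 (0.37 ± 0.11), and 3 fell. Those were Igfals, which holds IGF1 in the blood (-0.69 ± 0.13, adjusted p = 2.79e-04), the prolactin receptor Prlr (-0.72 ± 0.21) and the carrier Igfbp2 (-0.51 ± 0.14). Igf1, the main growth factor that growth hormone induces in liver, was at 454, 531 and 1028 CPM on western diet and 460, 875 and 1138 CPM on chow (-0.43 ± 0.19, adjusted p = 0.0629). It passed with DESeq2 (adjusted p = 0.0413) and without western diet replicate 3 or 4 or chow replicate 1 or 2. The median of the list was -0.0045. With library size alone 6 genes rose, where 4479 of all 13204 genes tested rose. Without western diet replicate 7, chow replicate 2 or chow replicate 9, 4 rose, where 3122 to 3356 of all genes tested rose.

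Transcription factors of the hepatocyte were lower by small steps. Of 17 tested, 9 fell and 1 rose, with a median of -0.26, against 23.6% lower and 24.8% higher over all genes. With library size alone 5 fell and 2 rose, where 1621 of all 13204 genes tested fell and 4479 rose. Hnf4a, a master regulator of hepatocyte genes, was at 775, 871 and 1006 CPM on western diet and 1001, 1172 and 1358 CPM on chow (log2 difference -0.39 ± 0.075, adjusted p = 2.84e-04). The pioneer factor Foxa1 fell by 0.65 ± 0.13. Zhx2, a factor known to control Mup genes in male liver, was at 29.8 to 39.9 CPM on western diet and 30.4 to 39.8 CPM on chow (-0.13 ± 0.066, adjusted p = 0.101), and it passed without western diet replicate 4 or chow replicate 8 (adjusted p = 0.0342 and 0.0341). Onecut1 was at -0.94 ± 0.40 and Bcl6 at 0.80 ± 0.35, and Cebpb, which responds to inflammatory cytokines, rose by 0.44 ± 0.17 (adjusted p = 0.0452). The rise of Cebpb was lost in 10 of 17 fits without 1 library, namely without western diet replicates 4 to 8 and without chow replicates 3 to 7.

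Other abundant proteins secreted by hepatocytes had log2 differences of -1.46 to 0.21 with a median of -0.13. Of 20 tested, 6 fell and none rose (none at an unadjusted p under 0.05, by DESeq2 or by limma-voom), against 23.6% lower and 24.8% higher over all genes. Albumin, Alb, was at 2692, 3405 and 5168 CPM on western diet and 3705, 4597 and 5370 CPM on chow (-0.38 ± 0.12, adjusted p = 0.0116). Ttr, which carries thyroid hormone, Apoa1 and Apoa2, the main apolipoproteins of HDL, the iron carrier Trf and Ahsg were at -0.15, -0.16, -0.12, 0.067 and -0.03 and did not pass. Serpina1e, a protease inhibitor of the alpha-1-antitrypsin group and named here after its values were seen, was 2.75-fold lower without overlap, at 135 to 891 CPM on western diet and 972 to 1671 CPM on chow. Besides Alb and Serpina1e, those that fell were Itih1 and, of the same group as Serpina1e, Serpina1a, Serpina1c and Serpina1d. Whether the genes of this group share reads was not tested. With the log2 library total as a covariate 12 of 20 fell, Ttr, Apoa1 and Apoa2 among them, which also passed without western diet replicate 1. Without the libraries with pancreatic transcripts 3 fell, as they did without western diet replicate 2, 5, 6, 7 or 8 or chow replicate 4, 8 or 9.

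**Figure D5:**
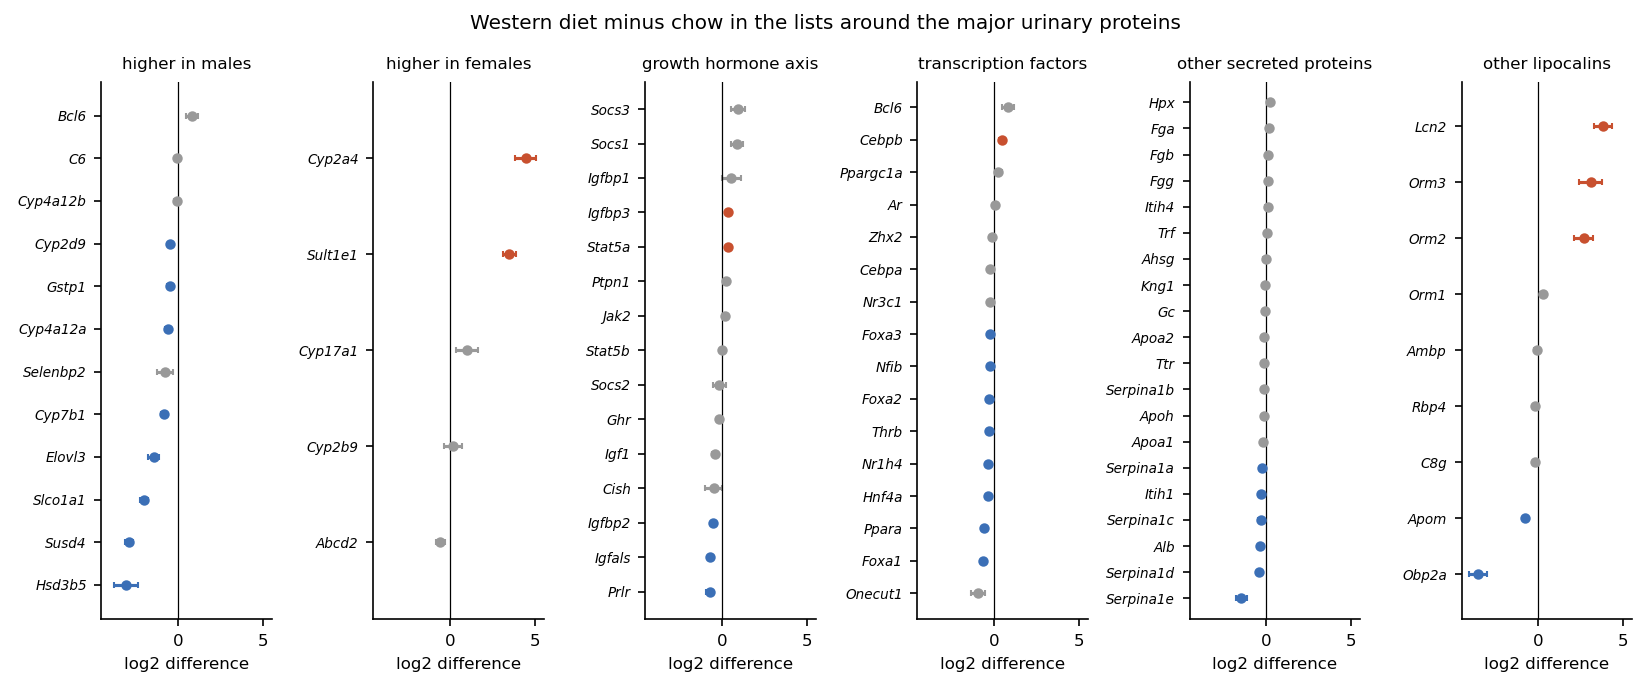
Log2 difference, western diet minus chow, with the SE as bars, for the tested genes, 1 transcription factor excepted, of 6 lists around the major urinary proteins. Red points rose and blue points fell at an adjusted p under 0.05, and grey points did not pass; of the genes known to be higher in males 8 of 12 are blue, and the secreted proteins lie between -1.46 and 0.21.

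The other lipocalins did not share a direction. Of 9 other lipocalins tested, 3 rose and 2 fell, with a median of -0.09, against 24.8% higher and 23.6% lower over all genes. Lcn2, which binds bacterial siderophores, rose from 2.12, 14.2 and 24.6 CPM on chow to 61.5, 123 and 621 CPM on western diet (log2 difference 3.81 ± 0.51, adjusted p = 1.76e-05), and the acute phase proteins Orm2 and Orm3 rose by 2.67 ± 0.55 and 3.08 ± 0.68. Western diet replicate 4 held the most of Lcn2, Orm1, Orm2 and Orm3. Without it the log2 differences were 3.22 for Lcn2, 1.80 for Orm2 and 2.32 for Orm3, and that of Orm2 was 1.70 with DESeq2. Obp2a, also named Lcn13, fell from 0.609, 3.84 and 6.29 CPM to 0, 0.176 and 1.34 CPM (-3.53 ± 0.52, adjusted p = 1.79e-05; -4.26 without western diet replicate 4) and Apom, the sphingosine phosphate carrier of HDL, by 0.78 ± 0.10 (adjusted p = 6.30e-06). The retinol carrier Rbp4 (-0.18 ± 0.11) and Orm1 (0.26 ± 0.18) did not pass, though Rbp4 passed without western diet replicate 1 (adjusted p = 0.00957) and the call of Orm3 was lost with limma-voom (adjusted p = 0.0953). Obp2a did not pass the filter on low counts when any chow library other than replicate 8 was left out, so that 1 of the list fell there, and 4 fell without western diet replicate 1.

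Genes whose level followed the summed Mup level most closely among mice of the same diet were ranked by Pearson's r of log2 CPM after each diet's mean was subtracted, over 17 libraries and 12999 genes outside the family, as a description. The highest were Cyp2d9, a steroid hydroxylase of male liver (r = 0.90), the serpin Serpina3k (0.90), the hepatocyte protease Hpn (0.90), 2410015M20Rik (0.90) and the proteasome subunit Psmb4 (0.89). The lowest were Gucy1a1, a subunit of the nitric oxide receptor (-0.87), the connexin Gja5 (-0.87), Abi3bp (-0.87), Lix1l (-0.86) and the phosphatase Ptpn14 (-0.85). The points share library depth with the Mup sum: the first 5 had depth slopes of 0.38 to 0.82 and the last 5 of 1.64 to 1.94, against the median of 1.17. The diet differences of the first 5 were -0.48, -0.42, -0.22, -0.034 and -0.23 in the same order. For the sum of the 6 members other than Mup3 and Mup20 the 5 highest genes were others, Adtrp (r = 0.80), Dnajc22 (0.79), Kmo (0.78), Zbtb43 (0.75) and Tmem126a (0.74), with depth slopes of 0.89 to 1.10. The lowest for that sum were Rnf166 (-0.76), 4933416M07Rik (-0.75), Cdr2l (-0.75), Rnf145 (-0.75) and Klf2 (-0.74), and these 10 genes were ranked after the values of the sum of 8 were seen.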

How the data were processed

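RNA of 17 whole livers was sequenced from both ends, per the labels' protocols. The authors deposited expected counts for each gene symbol in a file of its own for each library, unscaled between libraries and in steps of 0.5. STAR 2.4.1c, HOMER, FastQC, MultiQC and the build mm10 are named per the submitters' processing notes; not given in the sources used here are the counting options, the strand and the treatment of reads shared by near-identical copies. Of 24940 genes, 3 without a value were left out, and 24294 of 24937 matched RefSeq symbols (GRCm38.p6).

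Counts were rounded to whole numbers for the fits. The main fit was edgeR 4.0.16 in R 4.3.3 (TMM factors, its filter on low counts, robust quasi-likelihood test, Benjamini-Hochberg adjustment over 13204 genes, threshold 0.05), checked on simulated data. Sums replaced their rows in the fit. Alternatives were other scalings, DESeq2 1.42.0, limma-voom 3.58.1, other filters and leaving out each library; those added after the data were seen were leaving out both libraries with pancreatic transcripts, the log2 library total as a covariate, libraries of intermediate depth (6 western diet, 8 chow), and the sum of 6 members. Library totals of 3604212 to 9071908.5 set the counting error, and libraries of the same diet differed by more than that in every pair.

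The members and the gene lists were chosen with earlier results of these data known. Named genes were the 8 members, other Mup genes, the first 6 tested genes of each list in its order (1 transcription factor, counted in its list, is not reported here), up to 5 that went against the list's main direction, and the 5 genes most and least like the summed Mup level (average log2 CPM at least 1, pseudocount 0.5 CPM). Igfbp2, Prlr, Igfbp3, Slco1a1, Susd4, Serpina1a, Serpina1c, Serpina1d, Serpina1e, Itih1, Obp2a, Cd163, Marco and the genes most and least like the sum of 6 members were named after their values were seen. Besides the marker lists in the report, 4 of 7 lymphocyte, 7 of 8 stellate cell, 6 of 6 cholangiocyte and 3 of 8 endothelial markers rose, 2 endothelial markers fell, and no pancreatic marker passed. Over all genes tested 24.8% rose and 23.6% fell.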

Additional observations from a re-analysis of the deposited data

Results flagged for a closer look

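In 136 checks, each of 1 gene or sum in 1 diet group, 27 had 1 library far from the rest of its diet group. Chance gives this in about 5% of checks taken singly. The checks share the same 17 libraries and are not independent, so no excess over chance is read from their number. Among the Mup genes, chow replicate 7 was high in Mup5 (4.22 CPM, others 1.01 to 2.41), Mup8 (5.92 CPM, others 1.24 to 3.55) and Mup9 (32.7 CPM, others 4.14 to 15.1). Chow replicate 8, the chow library with the fewest counts, was high in Mup14 (237 CPM, others 115 to 166) and in the sum of the 8 members (2858 CPM, others 1902 to 2361). On western diet, replicate 5 was low in Mup7 (41.8 CPM, others 110 to 148) and replicate 1, the library with the fewest counts, was high in Mup20 (942 CPM, others 423 to 634).

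Replicate 1 of the western diet was also high in Rbp4 (1177 CPM), Ttr (1021 CPM), Apoa1 (1610 CPM) and Apoa2 (853 CPM). Western diet replicate 4 was high in Lcn2 (621 CPM), Orm1 (603 CPM), Orm2 (420.2 CPM), Orm3 (88.1 CPM) and Obp2a (1.34 CPM). Elovl3 (467 CPM) and Cyp17a1 (268 CPM) were high in western diet replicate 3. In western diet replicate 5, which held pancreatic transcripts, Ptpn14 (28.8 CPM), Abi3bp (18.1 CPM) and Gja5 (6.20 CPM) were high. Among the chow libraries, Zhx2 (30.4 CPM) and Lix1l (7.31 CPM) were low in replicate 8, and Cyp17a1 was high in replicate 1 (80.2 CPM), Cyp4a12b in replicate 6 (129.8 CPM), Sult1e1 in replicate 7 (2.58 CPM) and Gja5 in replicate 5 (1.88 CPM).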

How the results depend on the processing

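All 548 alternative values of single Mup genes and all 81 of the Mup sums kept their direction, and the summed difference of the 8 members was -0.64 to -0.46 in log2 when 1 library was left out and -0.63 to -0.43 otherwise. No paired analysis was possible because replicate numbers only follow the sample order and tie no chow mouse to a western diet mouse. With library size alone 1621 of all 13204 genes tested fell and 4479 rose. In that fit 6 genes of the growth hormone axis rose, 2 transcription factors rose and 5 fell, 1 male-biased gene rose and 3 secreted proteins fell. Of the transcription factors 0 rose without the filter on low counts and 0 in the libraries of intermediate depth. Female-biased genes that fell were 3 with DESeq2, 2 without the filter, 1 with CPM of at least 1 in 8 libraries and 1 without both libraries with pancreatic transcripts. Secreted proteins that fell were 3 without those libraries and 12 with the log2 library total as a covariate; lipocalins that fell were 5 with that covariate and 4 in the libraries of intermediate depth. Leaving out 1 library gave 1 to 4 lipocalins that fell, 2 to 4 genes of the growth hormone axis and 0 to 2 transcription factors that rose, 0 to 1 male-biased genes that rose, 0 to 1 female-biased genes that fell and 3 to 9 secreted proteins that fell. The r of Mup3 and Mup20 on western diet was 0.79 with library size alone (adjusted p = 0.0689, exact permutation test), where that of Mup20 and Mup21 was -0.077. Without the 2 libraries farthest from the median, r of Mup3 and Mup20 was 0.81 on chow and 0.59 on western diet, that of Mup3 and Mup21 on chow -0.21, of Mup20 and Mup21 -0.65 on chow and -0.28 on western diet, and of Mup1 on western diet -0.37 with Mup3, -0.37 with Mup20 and -0.15 with Mup21. Fewer libraries or genes entered the fits that left some out; otherwise the cause was not tested. At this depth Mup5, with 3 to 38.5 counts, is close to the limit of 3 counts.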
